A study of Homo sapiens with 2 samples.

Results

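The loops described here are chromatin contacts that reach over 1 Mb or more within 1 chromosome, in a list of loops from H3K27ac HiChIP of KYSE180 cells. KYSE180 is an established line of esophageal squamous cell carcinoma (ESCC), and the cells of the assay carried a non-targeting siRNA. Both libraries, labelled as replicates 1 and 2 of this 1 condition, share 1 deposited list, so no value below has a replicate spread and no groups could be compared. A loop was counted when it lay on an autosome and the starts of its bins of 2 kb were 1000 kb or more apart. This held for 3710 of 31803 autosomal loops and of 31950 loops in the whole list, or 11.7% of the autosomal ones (95% Wilson interval 11.32 to 12.02%). Intervals here cover counting error only, and since loops share bins and are not independent they are too narrow. The study's methods name the aim of the loop calling as active loops associated with p63, a squamous transcription factor, and keep only loops with H3K27ac at both ends, so the list need not hold all H3K27ac contacts and its anchors need not be all marked sites. Positions are hg19, as the labels name it, and start at base 1. The gene annotation at hand is on hg38, so genes were not laid over the bins, no bin was given a gene name, and the cell type was not checked against marker genes.

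Histone H3 acetylated at lysine 27 marks active promoters and enhancers. In HiChIP, DNA that lies close together in the nucleus is ligated, fragments that carry the mark are pulled down, and each read pair reports a contact between their sites. Most known contacts between enhancers and promoters stay within a topological domain, a stretch of chromosome whose parts meet more often with each other than with the outside. Contacts over a megabase or more usually leave such a domain and are sparse in any one experiment. Known examples join genes that gather in a nuclear body, such as the replication-dependent histone genes in the histone locus body.

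In the middle of their order the long loops spanned 1898 kb, with quartiles at 1344 and 3004.5 kb, and they reached up to 5000 kb. No autosomal loop went further, although the class from 4.9 to 5 Mb still held 43 loops. Whether the loop calling set this upper limit is not given in the sources used here. The median, quartiles and shares by span thus describe loops up to 5 Mb only. Of the long loops, 1225 (33.0%) spanned 1 to 1.5 Mb, 736 spanned 1.5 to 2 Mb, and 180 (4.85%) spanned 4.5 to 5 Mb. There was no break at the limit of 1 Mb, with 76 loops of 980 to 998 kb and 68 of 1000 to 1018 kb. Loops were also set against all pairs of anchors, which are bins with any autosomal loop. At a distance of 1 Mb, 0.330% of anchor pairs were joined by a loop, at 2 Mb 0.109%, at 3 Mb 0.104% and at 4 Mb 0.0514%, each over a class of 100 kb. Over all distances from 1 to 5 Mb, 0.120% of 3099591 anchor pairs were joined.

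**Figure D1:**
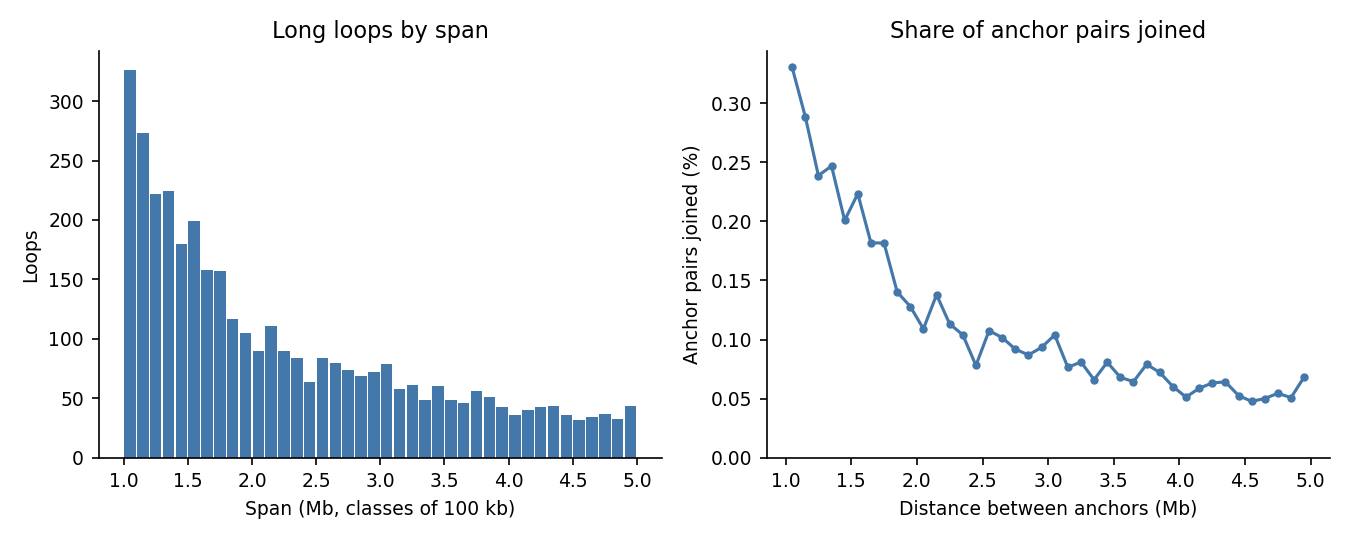
Left, number of autosomal loops of 1 Mb or more in classes of 100 kb of span. Right, percentage of all pairs of anchors in each class of distance that were joined by a loop. Both fell with distance, from 326 loops and 0.330% in the first class.

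Nearly all of these loops rested on a single read pair. A count of 1 was found for 3698 of them, and the 3710 loops held 3726 contacts in all. By the exact Poisson limits at 95%, a count of 1 allows a mean of 0.0253 to 5.57 contacts, so no single loop is measured with any precision and the values that follow describe groups of loops. These limits do not take into account that a pair of bins is listed only with 1 or more contacts. Loops with 2 or more contacts made up 0.323% of the long loops (0.185 to 0.565%), 1.18% of loops of 200 kb to 1 Mb (0.979 to 1.43%) and 4.94% of loops under 200 kb (4.64 to 5.25%). These 3 intervals did not overlap.

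The 12 long loops with more than 1 contact lay on 8 chromosomes and spanned 1142 to 4964 kb. The one with the most joined 97152001-97154000 to 99760001-99762000 on chromosome 9 with 5 contacts, although the coverage of its first bin (the number of read pairs that touch it) was only 11. Another on chromosome 3 joined 195384001-195386000 to 197354001-197356000, 1970 kb apart, with 3 contacts at a coverage of 25. The remaining 10 had 2 contacts each. Among these, the loop on chromosome 6 from 58776001-58778000 to 61914001-61916000 had a first bin with a coverage of 981 and passed over 3134 kb without an anchor. The loop on chromosome 12 from 34176001-34178000 to 38712001-38714000 had a coverage of only 5 and passed over an anchor-free 3598 kb. One of the 10 joined 26112001-26114000 to 27836001-27838000 on chromosome 6, the same pair of areas where long loops gathered most, as described below. For these 12 loops the coverage of the first bin ran from 5 to 981 with a median of 15. Repeats and centromeres were not marked on the positions given here.

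Long loops were spread over all 22 autosomes in near proportion to all loops. Chromosome 11 held the most, 406, followed by chromosome 3 with 360, chromosome 1 with 353 and chromosome 19 with 313, while chromosome 18 held 25. As a share of the loops of the same chromosome, the values ran from 7.003% on chromosome 18 (4.79 to 10.1%) to 14.1% on chromosome 11 (12.9 to 15.4%), with a median of 11.2% over autosomes. For 16 autosomes the interval overlapped that of the other autosomes together. It lay above on 2 of them, chromosome 11 and chromosome 6 (13.6%, 12.05 to 15.23%), and below on 4, namely chromosomes 7 (9.80%), 14 (9.73%), 16 (9.40%) and 18. No correction was made for the 22 comparisons. The regions richest in long-loop ends were left out in turn, which lowers these shares by construction. Without loops that end between 62 and 71 Mb, chromosome 11 had 10.7% (8.83 to 12.9%), and without loops that end between 26 and 28 Mb, chromosome 6 had 11.9% (10.3 to 13.7%). Without its loops that end between 28 and 34 Mb, chromosome 6 had 12.18% (10.57 to 14.0%).

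**Figure D2:**
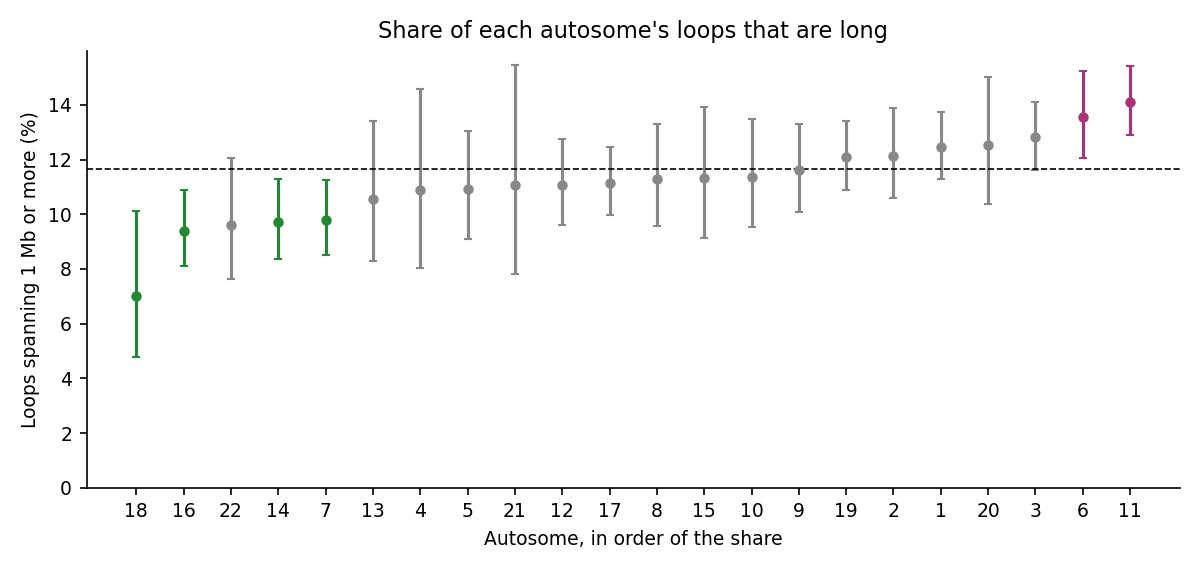
Percentage of each autosome's loops that span 1 Mb or more, with 95% Wilson intervals (counting error only). The dashed line is the value over all autosomes, 11.7%. Chromosomes 6 and 11 (purple) lie above and 7, 14, 16 and 18 (green) below the other autosomes together.

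The ends of the long loops were unevenly spread. Of the 1961 windows of 1 Mb with any loop end, 1556 held an end of a long loop, with a median of 3 ends, and 462 held only 1. The 233 fullest windows together held 50% of the ends. In the 10 fullest lay 9.14% of the 7420 ends (8.50 to 9.81%), against 6.78% of the ends of loops under 1 Mb in the same windows (6.58 to 6.99%). These windows were picked for their long loops, so the difference between the shares is a description. Of the 10, 7 lay on chromosome 11 between 64 and 71 Mb, 2 on chromosome 6 between 26 and 28 Mb and 1 on chromosome 19 between 45 and 46 Mb.

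The window with the most ends was 67 to 68 Mb on chromosome 11, with 113 ends of long loops and 749 of shorter ones. It was followed by its neighbour from 66 to 67 Mb with 96 and 708. From 68 to 69 Mb there were 79 and only 242, so that 24.6% of all ends there belonged to long loops (20.2 to 29.6%), and from 70 to 71 Mb 27.7% did (21.3 to 35.1%), against 11.7% over all autosomes. On chromosome 6, 57 of 269 ends between 27 and 28 Mb were of long loops (21.2%, 16.7 to 26.5%) and 49 of 401 between 26 and 27 Mb (12.2%). A window rich in ends of long loops did not always have a high share of them. The window from 189 to 190 Mb on chromosome 3 held 497 ends of shorter loops and 26 of long ones, 4.97% (3.41 to 7.18%), the lowest share among the 43 windows with 20 or more long ends. The highest among them was 31.9% (22.1 to 43.6%), from 28 to 29 Mb on chromosome 6, with 22 of 69 ends.

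**Figure D3:**
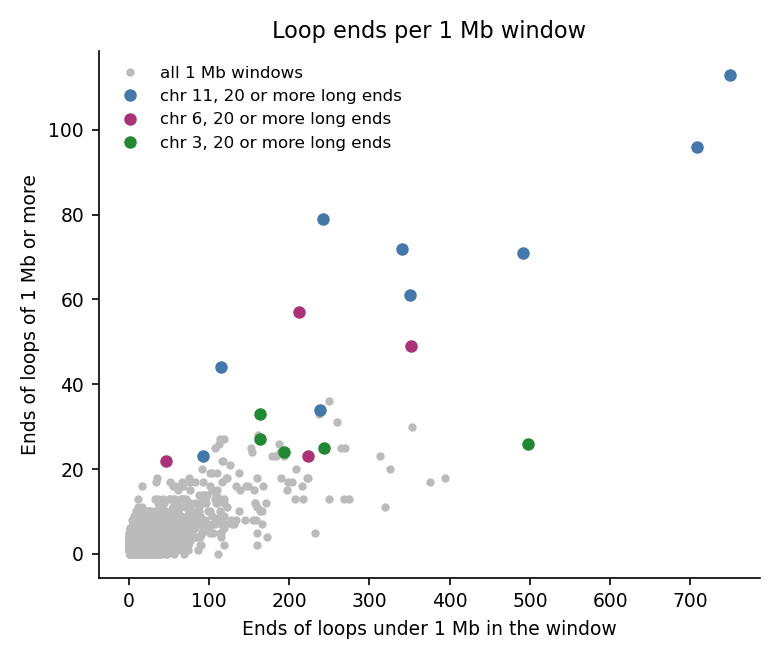
Each point is a 1 Mb window of an autosome, placed by its number of ends of loops under 1 Mb and of loops of 1 Mb or more. Coloured points are windows with 20 or more long ends on chromosomes 11, 6 and 3. Windows of chromosome 11 reach 113 long ends, and 1 window of chromosome 3 has 497 shorter ends but 26 long ones.

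The largest gathering was on chromosome 11 from 62 to 71 Mb, which covers much of band 11q13. This band carries CCND1, the gene of cyclin D1, and is known as a frequently amplified part of ESCC genomes. It had 593 of the long-loop ends, 7.99% (7.396 to 8.631%), and 310 long loops with at least 1 end, of which 283 had both. Of all loops with at least 1 end there, 15.7% were long (14.1 to 17.3%), a share that counts loops crossing the border in full. The stretch held 5.92% of the ends of loops under 1 Mb. The 12 pairs of 1 Mb windows on chromosome 11 with 10 or more long loops all fell in this stretch, led by 23 loops between 65-66 and 67-68 Mb, 22 between 67-68 and 69-70 Mb and 20 between 66-67 and 69-70 Mb. When stretches of touching anchors were linked wherever a long loop joined them, the largest connected set lay here. It took in 255 stretches and 289 long loops over 15.8 Mb, and the next largest had 56 stretches, on chromosome 3.

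The number of anchors was high as well. The stretch of 9 Mb held 939 anchor bins, and 0.0989% of its 286224 anchor pairs 1 to 5 Mb apart were joined (0.0880 to 0.111%). Anchor pairs at the same spans were joined in 0.128% over all autosomes, this stretch included. A pair of anchors in this stretch was thus joined 0.773 times as often. Some anchors count only because a long loop ends there, since 55.3% of long-loop bins also had a shorter loop. Anchors added by shorter loops alone lower the joined share by construction, and their part in this ratio was not tested. First bins here had a median coverage of 23, those elsewhere 12, and per 1000 units of coverage it had 13.4 long loops against 9.88. Over all autosomes this rate fell with coverage, from 36.4 for first bins at 1 to 5 to 3.32 at 81 or more. The rates here and elsewhere are thus not matched for coverage. With only anchors at a coverage of 20 or more, the joined share was 0.1999% (0.169 to 0.237%), against 0.232% over all autosomes at the same spans. Coverage is given only for bins that start a loop, 21500 of the 34644 autosomal anchors, so all other anchors were left out of this share.

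In other crowded regions the joined share lay below that of all autosomes at the same spans, or within its own interval of it. The same limit of the anchors holds for these shares. On 10 Mb of chromosome 3 with anchors from 181284001 to 190478000, on the long arm that carries SOX2 and TP63, both known as squamous lineage factors, 116 long loops had an end and 95 both ends. Here 0.0959% of anchor pairs were joined (0.0785 to 0.117%), against 0.123% at the same spans. The wider segment of chromosome 3 from 120 to 200 Mb held 295 long loops, 0.964 times the joined share at the same spans. It had a median coverage of 22 against 12 elsewhere and 7.37 long loops per 1000 units of coverage against 10.4, which again are not matched for coverage. On chromosome 19 from 45 to 50 Mb the joined share was 0.0672% against 0.143%, and on 4 Mb of chromosome 9 with anchors from 130006001 to 133990000 it was 0.0832% against 0.179%. On chromosome 19 from 12 to 15 Mb it was 0.247% (0.154 to 0.395%) against 0.225%, and on chromosome 17 from 78 to 81 Mb 0.141% (0.0790 to 0.253%) against 0.221%, which the intervals do not separate.

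The 2 Mb of chromosome 6 from 26 to 28 Mb differed from these regions. They held 33 long loops with 34 contacts from the lower to the higher megabase, the most of any pair of windows, although the region had only 175 anchor bins. The joined share was 0.570% of 5787 pairs (0.406 to 0.800%) against 0.229% at the same spans, or 2.49 times as much. The region was chosen after the windows had been ranked by their long loops, so this ratio is a description and has no test. These 2 Mb are the part of the short arm that carries the major cluster of replication-dependent histone genes. Those genes are transcribed in S phase and their products package newly made DNA. In the hg38 annotation, chromosome 6 had 55 protein-coding genes of histones H1, H2A, H2B, H3 and H4. Of these, 32 lay in 1 subcluster of 268 kb and 16 in a second of 85.5 kb, and the genes of the first were 1522 to 1876 kb away from those of the second.

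Most ends of these loops fell into a pair of areas spaced like these subclusters. The lower area had 66 anchor bins from 26016001 to 26288000, and the higher had 26 from 27776001 to 27866000. Between them ran 22 long loops with 23 contacts, from 19 bins of the lower area to 14 bins of the higher, with spans of 1560 to 1822 kb and a median of 1650 kb. Of the 1716 pairs of these bins, 1.28% were joined (0.848 to 1.93%), against 0.190% over all autosomes at the same spans, or 6.76 times as much. The areas were drawn around the ends after they had been seen, so this ratio is a description and has no test. Coverage was high in both, with a median of 33 in the lower and 38 in the higher area over the bins that have a value. With both anchors at a coverage of 20 or more, 18 of 697 pairs were joined (2.58%, 1.64 to 4.05%), against 0.395% over all autosomes at the same spans and the same minimum. Bins without a coverage value were left out of these shares. Coverage above this minimum was not matched, and its part in the share was not tested.

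Next to the histone areas, the 6 Mb of chromosome 6 from 28 to 34 Mb, where the major histocompatibility complex lies, had 18 long loops with both ends inside. There 0.0668% of anchor pairs were joined (0.0422 to 0.106%), against 0.147% at the same spans. The 71 long loops with at least 1 end in these 6 Mb made up 18.6% of its loops (15.05 to 22.85%). Loops that cross the border count in full here, and long loops cross it more often by construction. By ends, the 6 Mb held 1.20% of those of long loops and 1.07% of those of loops under 1 Mb.

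**Figure D4:**
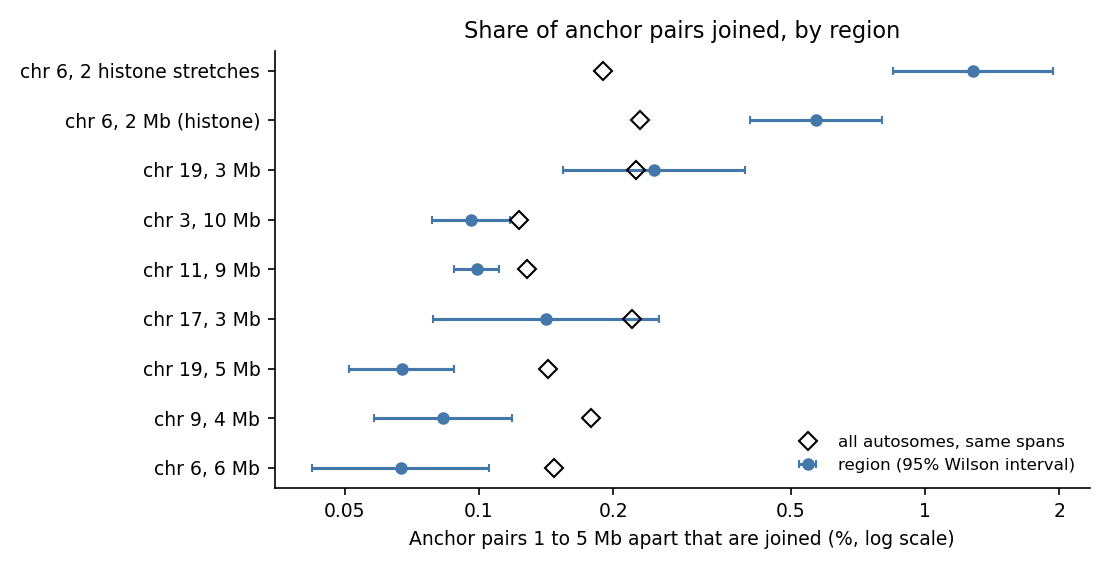
Percentage of anchor pairs 1 to 5 Mb apart that were joined by a loop within each region (points, 95% Wilson intervals, log axis) and over all autosomes at the same spans (diamonds). Regions are named by chromosome and length, and anchors include bins with only long loops. The histone region of chromosome 6 lies above its diamond, at 0.570% against 0.229%, and its pair of histone areas at 1.28% against 0.190%, while the 9 Mb of chromosome 11 lie below, at 0.0989% against 0.128%. The histone region and areas were chosen after the long loops had been seen.

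Long loops seldom shared a bin. Their 7420 ends fell on 6619 distinct bins, 1.12 ends per bin, and 5954 of the bins had 1 long loop. A second or further long loop was found in 665 bins, 10.0% (9.35 to 10.8%), and these took 19.8% of the ends. For loops of 200 kb to 1 Mb, which are more numerous, 19.4% of bins had 2 or more loops of that class, and for loops under 200 kb 33.7%. Only 105 bins had 3 or more long loops and 15 had 4 or more. Of these 15, 6 lay on chromosome 11, 4 on chromosome 6, 2 on chromosome 3 and 1 each on chromosomes 2, 17 and 20.

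The bin shared by the most long loops was 67350001-67352000 on chromosome 11, with 10 long loops among its 18 loops and a coverage of 72. Its partners lay on both sides, 6 at lower positions from 64880001 to 66278000 and 4 at higher positions from 68742001 to 70128000. No 2 of these partners were closer than 28 kb, so the bin was joined to 10 separate sites rather than to a single one. On the same chromosome 67006001-67008000 had 6 long loops among 20, at a coverage of 103, and 5 of its partners lay at higher positions, 1238 to 3112 kb away. The bin 67196001-67198000 had 5 among 24 and 66886001-66888000 had 4 among 27. All of them thus lay within the crowded 11q13 stretch.

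In the higher histone area of chromosome 6, 27832001-27834000 had 8 long loops among 23, at a coverage of 87. Of its partners, 5 lay in the lower histone area, at 26016001-26018000, 26058001-26060000, 26204001-26206000, 26218001-26220000 and 26272001-26274000. The neighbouring bin 27830001-27832000 had 4 long loops, of which 2 ran to higher positions, at 30778001-30780000 and 32788001-32790000. In the lower area, 26056001-26058000 had 4 among its 9 loops. Its partners at 24662001-24664000 and 28050001-28052000 lay outside the higher area. On chromosome 3, 189618001-189620000 had 5 long loops among 20 at a coverage of 110, 4 of them to lower positions as far as 3258 kb away.

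Some shared bins carried few other loops. On chromosome 17, 78076001-78078000 had 7 loops, 6 of them long, to partners 1592 to 4360 kb away at a coverage of only 19. On chromosome 2, 60776001-60778000 had 4 long loops among 5, and on chromosome 20, 50722001-50724000 had 4 among 6. All 4 loops of 186856001-186858000 on chromosome 3 were long, and so were all 4 of 58776001-58778000 on chromosome 6, where the coverage was 981. These bins were ranked by their long loops, so their shares of long loops are given without a test. The coverage of 981 stood against a median of 14 for the first bins of long loops. Whether that bin lies in repeats or beside a centromere was not checked.

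**Figure D5:**
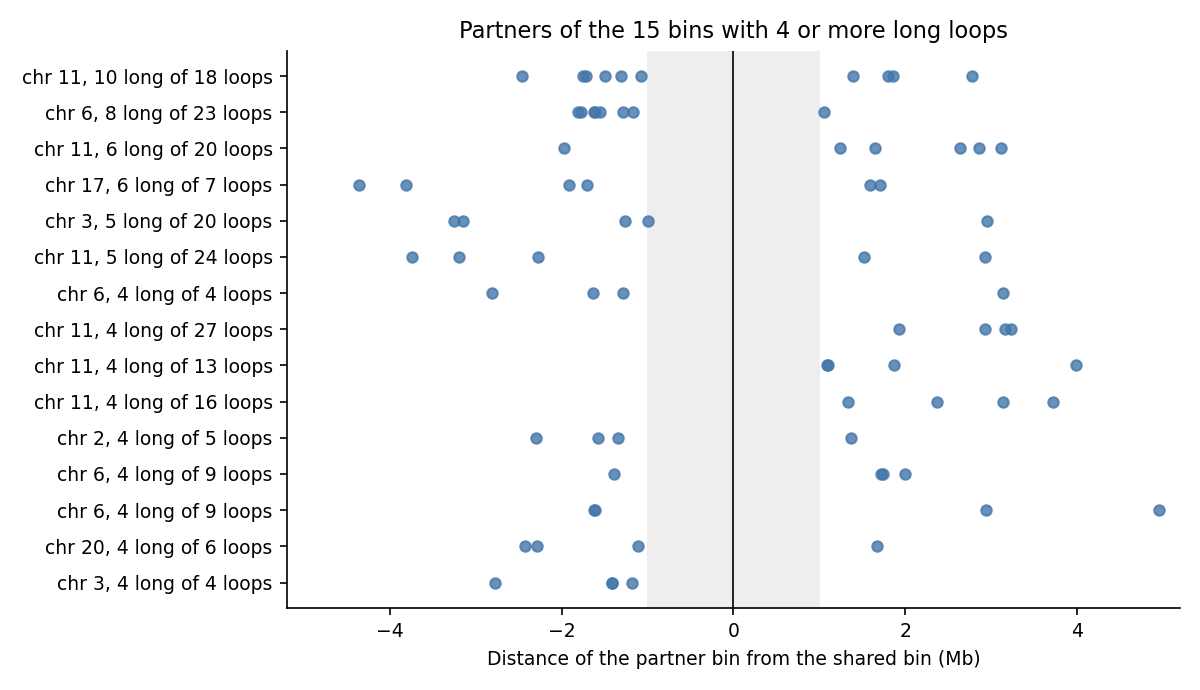
Distance in Mb from each of the 15 bins with 4 or more long loops (rows, in order of their number) to the partner bins of its long loops (points). The grey band holds distances under 1 Mb, which do not count as long. Partners of the first bin, on chromosome 11, lie on both sides, and 7 of 8 partners of the chromosome 6 bin in the second row lie at lower positions.

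Most bins of long loops also anchored nearer contacts. A loop under 1 Mb ended in 55.3% of the 6619 bins (54.1 to 56.5%). Of the 13701 bins of loops of 200 kb to 1 Mb, 50.3% also had a loop of another span class (49.5 to 51.2%). For the 24194 bins of loops under 200 kb this was 33.1% (32.5 to 33.7%). The other classes differ in their number of loops, so these shares are not like for like. Busy bins did not hold a higher share of long-loop ends. Among bins with 1 loop in all, 13.7% of ends were of long loops (13.2 to 14.2%), and among bins with 10 or more this was 9.68% (8.62 to 10.8%). Since a bin with many loops has more chances, 60.8% of the bins with 10 or more loops had at least 1 long loop. The coverage of the first bins was nearly the same for each class of span, with a median of 14 for long loops and for those of 200 kb to 1 Mb and 13 for loops under 200 kb. A long loop started in 13.6% of first bins with a coverage of 1 to 5 and in 34.02% of those with 81 or more, while the share of long loops among the loops of these bins was 12.8% and 11.3%.

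Longer stretches of touching anchors had a long loop more often. Merging gave 22405 stretches, of which 5849 had a long loop. A long loop ended in 18.7% of the stretches of 2 kb (18.1 to 19.4%), 33.4% of those of 4 kb, 45.6% of those of 6 kb and 59.0% of those of 8 kb or more (54.9 to 62.8%). A stretch with more bins holds more ends by construction. A long loop passed over a median of 38 other anchored stretches (interquartile range 20 to 63), against 11 for loops of 200 kb to 1 Mb, and 24 of the 3710 passed over none. Loops of longer span pass over more stretches by construction, so this contrast is a description.

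Repeated contacts between the same pair of stretches were rare. The long loops joined 3691 pairs of stretches, 99.5% of them by 1 loop, and 18 pairs by 2 or more. This count depended on the merging of anchors, and was 76 when anchors up to 10 kb apart were merged, so the pairs named here are those of touching anchors only. Of these 18, 4 ran between the histone areas of chromosome 6, and all 4 ended in the stretch 27830001 to 27846000. This 16 kb stretch was joined by 3 loops to 26194001-26210000 and by 2 each to 26016001-26022000, 26102001-26114000 and 26214001-26228000. With 19 long loops to 14 stretches it shared the highest number of partners with 67348001-67356000 on chromosome 11, which had 14 loops to 14 stretches. On chromosome 11, 4 pairs recurred, among them 65148001-65158000 with 67076001-67088000. On chromosome 10, the stretch 38880001 to 38886000 was joined by 2 loops each to 42378001-42390000 and 42596001-42604000, over a gap without anchors. Whether repeats or a centromere lie there was not checked. Pairs joined by 2 loops on chromosome 3 were 185438001-185450000 with 186856001-186858000 and 187454001-187464000 with 188664001-188668000. On chromosome 17, 38644001-38652000 was joined by 2 loops to 39804001-39816000. Chromosomes 1, 5, 9, 16 and 19 had 1 pair each.

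Some long loops crossed wide stretches of the reference without an anchor. The widest stretch without anchors inside a long loop was 378 kb at the median, with quartiles at 208 and 705.5 kb, and 521 loops, 14.0% (13.0 to 15.2%), passed over 1 Mb or more without an anchor. Gaps of 2.5 Mb or more were passed 68 times, at 52 places, 42 of which had a single loop. The gap passed most often, by 6 loops, lay on chromosome 10 from 39152001 to 42356000. Its upper side held 42384001-42386000, the first bin with the highest coverage among long loops, 1408, where 2 of 13 loops were long. Of the 3710 long loops, 6 started in a bin with a coverage of 300 or more. The part of such coverage in these loops was not tested. No hg19 sequence was at hand, so centromeres and unsequenced parts of the assembly were not told apart from chromatin without anchors.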

How the data were processed

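H3K27ac HiChIP of KYSE180 cells with a non-targeting siRNA was analysed, in 2 libraries of 1 condition. Alignment and contact matrices were made by the authors with HiC-Pro, and loops, described in the methods as p63-associated, came from FitHiChIP, run from peaks to all bins (which peaks is not given in the sources used here), with loops lacking H3K27ac at an end left out. Versions and thresholds are not given in the sources used here. The authors deposited 1 list for both libraries with 2 unnamed columns of whole numbers, read from FitHiChIP's column order as the count of contacts and the coverage signal of the first bin, both unnormalized. Library depth is not shown. The coverage of the autosomal first bins summed to 367823.

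Members and regions were chosen with earlier results of these data known. Start sites could not be placed because the annotation (GENCODE 44) is on hg38, so the planned share of ends at start sites and the naming of genes were not run. The named bins are those with 4 or more long loops. Shares have 95% Wilson intervals. Joined shares over all autosomes were weighted to the region's spans in classes of 100 kb. Functions were tested on simulated lists. The alternatives were another minimum span, loops with more contacts, contacts in place of loops, chromosome X added, other windows, merged anchors, and leaving out chromosome 3 from 120 to 200 Mb and chromosome 11 from 65 to 70 Mb. Tables were handled with pandas 2.3.3 and numpy 2.4.6 in Python 3.11.15, intervals with scipy 1.17.1, connected sets with networkx 3.6.1 and plots with matplotlib 3.10.9.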

Additional observations from a re-analysis of the deposited data

Results flagged for a closer look

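Loops on chromosome X lay outside the autosomes described above. Of its 142 loops, 17 spanned 1 Mb or more, 11.97% (95% Wilson interval 7.61 to 18.3%) and they are given here because X was in no comparison above. The interval holds the 11.7% of the autosomes.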

How the results depend on the processing

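Of 39 recomputed values of 13 results, 16 stayed within the interval or limit of the value given above and 23 did not. Where the construction of an alternative does not show it, the cause was not tested. With spans of 2 Mb or more, long loops made up 7.26% of the loops on chromosome 11, 6.19% on chromosome 6 and 3.64% on chromosome 18, 5.55% of bins were shared, and 3 pairs of stretches recurred, fewer by construction. Without the segments of chromosomes 3 and 11, long loops were 11.3% of loops, 8.17% of their bins were shared, 52.4% also had a shorter loop, and the 10 fullest windows held 5.48% of ends. With a minimum of 2 contacts, 1.12% of loops were long, with a minimum span of 20 kb 13.4%, and 11.1% of contacts were in long loops. At least 3 contacts were found in 0.0539% of long loops. With merged stretches, 18.3% had 2 or more long loops and 71.2% also had a shorter loop. The 2 fullest windows of 5 Mb held 7.75% of ends, and the 10 fullest windows 6.96% of distinct bins. When anchors up to 10 kb apart were merged, 76 pairs recurred. Added after seeing the data were the joined share between the histone areas itself (1.28%), with 17% of their pairs of merged stretches joined, the shares with anchors at a coverage of 20 or more (2.58% between the histone areas and 0.1999% on chromosome 11), and the shares without loops that end between 62 and 71 Mb (10.7% on chromosome 11), between 26 and 28 Mb (11.9% on chromosome 6) or between 28 and 34 Mb (12.18% on chromosome 6). The 6 alternatives on start sites were not run. No paired analysis was possible because 1 list covers both libraries, and no library could be left out.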
